A study of Homo sapiens with 12 samples.

Results

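Expression was examined for 8 enzymes of the mevalonate pathway and of its isoprenoid branch, ACAT2, HMGCS1, MVK, PMVK, MVD, IDI1, FDPS and GGPS1. They were chosen by name as enzymes on the route from acetoacetyl-CoA to farnesyl and geranylgeranyl diphosphate. All 8 were found by symbol in each of 3 expression tables, which hold 16491 rows for HCC70 cells, 18217 for MDA-MB468 cells given XY018 and atorvastatin (ATV), and 57909 for MDA-MB468 cells given GSK805. RNA-seq libraries came from HCC70 and MDA-MB468, established lines of triple-negative breast cancer (TNBC). HCC70 cells received vehicle, XY018 at 1.25 or 2.5 µM, ATV at 1.25 µM, or XY018 and ATV together at 1.25 µM each, for 24 h. The 5 treatments were repeated in MDA-MB468, and a second experiment in that line set GSK805 at 2.5 µM beside its own vehicle for 24 h. XY018 and GSK805 are antagonists of the nuclear receptor RORγ, and ATV is a statin. Both lines were grown in serum-containing medium, and for MDA-MB468 the sample labels list added insulin while the study's methods do not. There are 12 libraries in all, 1 per condition, so differences are given as sizes, without replicates and without p-values.

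The mevalonate pathway builds isoprenoids in the cytosol and peroxisomes from acetyl-CoA. Its products feed cholesterol, ubiquinone, dolichol and the lipid anchors of small GTPases such as Ras. Cells that lack sterols are known to raise transcription of these enzyme genes through SREBP transcription factors, and statins, which block the synthesis of mevalonate, are known to cause that response. Farnesyl diphosphate, made by FDPS, is the branch point from which squalene leads to sterols and geranylgeranyl diphosphate, made by GGPS1, leads to other products.

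Coordinates are those of GRCh37 with GENCODE annotation, and each interval spans the whole gene. ACAT2, cytosolic acetoacetyl-CoA thiolase, lies at chr6:160183077-160200144 on the plus strand. HMGCS1, which makes HMG-CoA, lies at chr5:43287572-43313614 on the minus strand. MVK, mevalonate kinase, lies at chr12:110011060-110035930 on the plus strand. PMVK, phosphomevalonate kinase, lies at chr1:154897216-154909195 on the minus strand. MVD, which decarboxylates mevalonate diphosphate to isopentenyl diphosphate, lies at chr16:88718343-88729569 on the minus strand. IDI1, which turns isopentenyl into dimethylallyl diphosphate, lies at chr10:1085092-1095059 on the minus strand. FDPS lies at chr1:155278539-155290457 on the plus strand, and GGPS1 lies at chr1:235490665-235507847 on the plus strand. GENCODE lists 8 pseudogenes of FDPS and 3 of IDI1, and how the authors' pipeline divided reads shared with these copies is not given in the sources used here, so levels of FDPS and IDI1 are less certain than those of the other enzymes.

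Promoter sequence was looked at beside the expression values because the enzymes separated into 6 that responded and 2, PMVK and GGPS1, that stayed within 1.5-fold. RefSeq promoters, which run from 250 bases before a start site to 50 after it, were matched for 7 of the 8 enzymes in the table of build GRCh38.p14, and each matched a single place on its chromosome in GRCh37, 0 bases from the main transcript's start. The promoter of ACAT2 is not analysed here. The following stretches hold no annotated exon, run 5′ to 3′ on the strand of the gene and have the letters CCAAT in capitals, or ATTGG where the match is on the other strand. They are shown because MVK held the most matches and PMVK none, and MVD and IDI1 differed most between the lines with XY018. The MVK stretch is chr12:110011386-110011597, that of MVD is chr16:88729570-88729705, that of IDI1 is chr10:1095060-1095309 and that of PMVK is chr1:154909196-154909445.
MVK: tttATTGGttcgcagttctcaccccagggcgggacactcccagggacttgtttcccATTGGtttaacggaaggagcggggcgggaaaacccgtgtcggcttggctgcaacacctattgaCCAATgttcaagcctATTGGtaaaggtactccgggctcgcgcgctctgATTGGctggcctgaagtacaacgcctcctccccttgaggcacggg
MVD: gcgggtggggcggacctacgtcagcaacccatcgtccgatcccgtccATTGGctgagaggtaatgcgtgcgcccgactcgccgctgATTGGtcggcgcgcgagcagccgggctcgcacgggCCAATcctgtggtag
IDI1: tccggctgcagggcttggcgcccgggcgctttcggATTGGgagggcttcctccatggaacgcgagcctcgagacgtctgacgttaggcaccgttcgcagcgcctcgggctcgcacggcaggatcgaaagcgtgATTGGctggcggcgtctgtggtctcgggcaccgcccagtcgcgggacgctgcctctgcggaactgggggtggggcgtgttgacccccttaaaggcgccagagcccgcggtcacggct
PMVK: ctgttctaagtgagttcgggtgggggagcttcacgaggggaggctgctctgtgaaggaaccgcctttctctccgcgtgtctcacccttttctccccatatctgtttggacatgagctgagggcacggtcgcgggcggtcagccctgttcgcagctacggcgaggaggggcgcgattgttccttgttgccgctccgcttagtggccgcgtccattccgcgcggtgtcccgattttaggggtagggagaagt

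CCAAT, the letters bound by the factor NF-Y, was found on either strand of 6 of the 7 promoters, against 34.6% of all 35116 promoters in the table. MVK held 5 copies, MVD and FDPS 3 each, HMGCS1 and IDI1 2 each, GGPS1 1 and PMVK 0. At least 2 copies stood in 5 of the 7 promoters and in 10.8% of all, and at least 3 copies in 3 of the 7 and in 3.26% of all. The GC box GGGCGG was found in all 7 promoters and in 45.0% of all promoters. The letters TCACCCCAC of a sterol regulatory element and their looser form TCACNCCAC, which includes the first, were found in none of the 7. The same held for the nuclear receptor half-site AGGTCA and its longer form TAGGTCA, which includes the half-site. These strings stood in 0.43%, 1.13%, 13.8% and 1.85% of all promoters, in that order. Only exact letters were searched, so sterol elements with other letters would be missed. The study reported less SREBP2 binding at the promoters of HMGCS1 and MVK with an RORγ antagonist. These counts describe letters within 300 bases, and no test was made of whether they bear on expression. The study mutated putative RORγ sites of MVK and HMGCS1 in reporter fragments longer than these promoters. Those sites do not hold the letters AGGTCA, so the search for that half-site could not find them. The MVK site, as the study gives it, begins with ATTGG, which are also the letters of CCAAT on the other strand.

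Each gene was given by the authors as FPKM, the fragments of a gene per kilobase of transcript, scaled by all fragments mapped in the library, so levels can be set beside each other between enzymes of a library. The 3 tables were normalized separately. Changes are log2 ratios of a treated library to the vehicle library of its own table, with 0.1 FPKM added to both, and a gene enters a comparison if either library of the pair has it at 1 FPKM or more. All 8 enzymes passed that filter in all 9 comparisons. A gene is called lower or higher at 1.5-fold or more, which is a size and not a test. The files hold no read counts, and the sequencing depth was read from the steps between low FPKM values, at 9030000 to 9820000 fragments in the HCC70 libraries, 17210000 to 18610000 in the MDA-MB468 libraries with XY018 and ATV, and 8340000 and 8650000 in the GSK805 pair. The 95% intervals below rest on those estimates and cover counting error only, not variation between cultures. The epithelial markers EPCAM, KRT8, KRT18 and CDH1 were at 27.1 FPKM or above in every library, and ESR1 was at 0.37 to 0.67 FPKM except in the GSK805 pair, at 1.77 and 5.67. ERBB2, which TNBC lines are expected to express weakly, stood at 25.3 to 57.7 FPKM and so was not absent. Of markers of other cell types, COL1A1 was at 3.84 to 17.2 FPKM, higher with XY018 or GSK805 in MDA-MB468 than in vehicle, while COL1A2 and DCN were at 0.07 FPKM or below where listed and PTPRC, PECAM1 and ALB at 1.21 FPKM or below. KRT8 was lower in MDA-MB468 with XY018 at 2.5 µM (468 against 918 FPKM) and with GSK805 (422 against 967 FPKM). The part of these markers in the results below was not tested.

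FDPS was the highest of the 8 enzymes in 12 of 12 libraries, and MVK was the lowest in 11 of 12. In the HCC70 vehicle library FDPS stood at 200.5 FPKM, above 97.5% of genes at 1 FPKM or more, and MVK at 8.65 FPKM, above 42.1%. In that library IDI1 (57.8 FPKM), MVD (56.0 FPKM) and ACAT2 (49.0 FPKM) came next, followed by PMVK (25.0 FPKM), GGPS1 (17.8 FPKM) and HMGCS1 (16.1 FPKM). The exception to MVK as the lowest was MDA-MB468 with ATV, in which PMVK was lowest at 22.5 FPKM. HMGCS1 held another place in MDA-MB468, where its vehicle level of 57.1 FPKM lay above 88.3% of expressed genes, against 61.4% in HCC70. FDPS made up between 34.1% and 53.6% of the summed FPKM of the 8 enzymes over the 12 libraries.

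**Figure D1:**
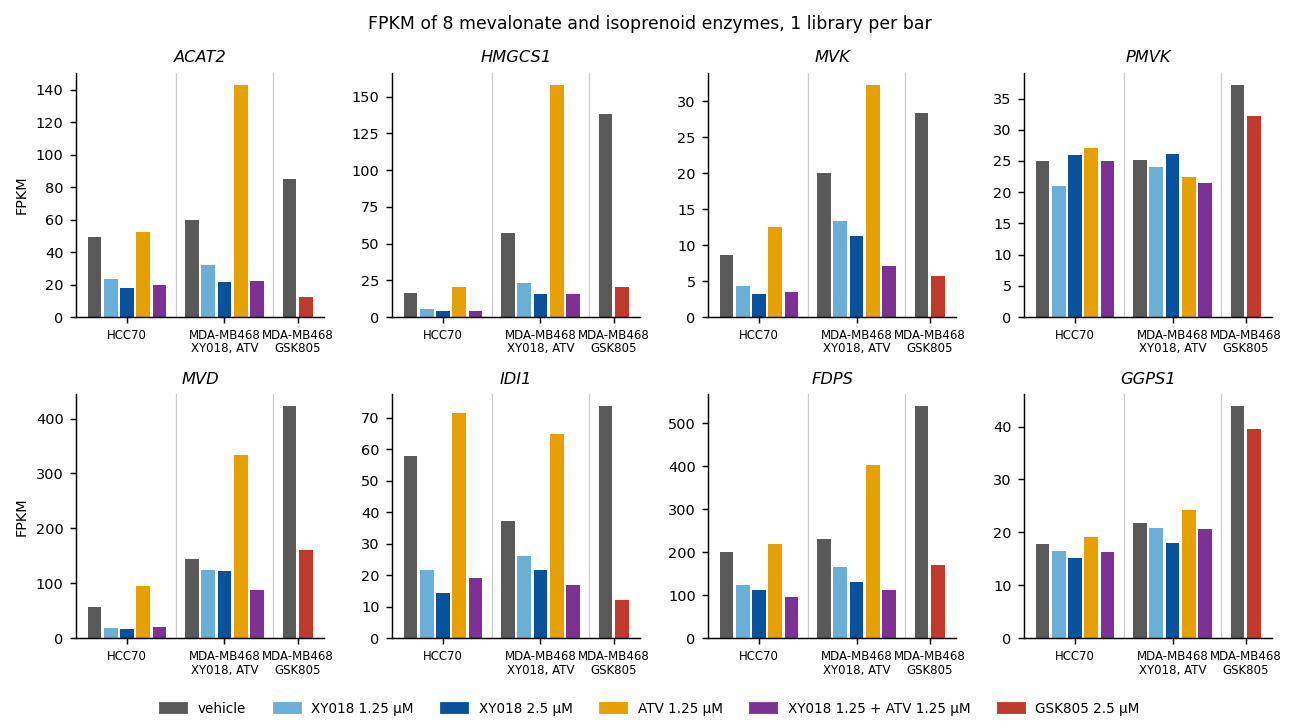
FPKM of each enzyme on a linear axis that starts at 0, with 1 bar per library, in HCC70 (left group), MDA-MB468 with XY018 and ATV (middle) and MDA-MB468 with GSK805 (right), and each panel with its own scale. Bars of ACAT2, HMGCS1, MVK and FDPS are shorter with XY018, with both compounds and with GSK805 than with vehicle, while those of PMVK lie between 21.0 and 27.1 FPKM outside the GSK805 pair.

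In HCC70, XY018 gave lower transcript levels of 6 of the 8 enzymes. ACAT2, HMGCS1, MVK, MVD, IDI1 and FDPS were lower by at least 1.5-fold at 1.25 µM, against 2.64% of all 11738 genes compared, and again at 2.5 µM, against 3.26%. The median log2 ratio of the 8 enzymes was -1.03 at 1.25 µM and -1.44 at 2.5 µM, where the medians of all genes were -0.01 and -0.02. In bulk RNA, fewer cells with a transcript and less transcript per cell cannot be told apart. In MDA-MB468 fewer enzymes were called lower and the median change was smaller, though not every enzyme differed between the lines. There 3 of 8 were lower at 1.25 µM, against 8.38% of all genes, and 5 of 8 at 2.5 µM, against 14.5%, with medians of -0.49 and -0.80 beside 0.01 and 0.00 for all genes.

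ACAT2 and HMGCS1 carry out the steps before mevalonate. ACAT2 stood in HCC70 at 49.0 FPKM with vehicle, 23.5 with XY018 at 1.25 µM, 17.8 at 2.5 µM, 52.4 with ATV and 19.9 with both. In MDA-MB468 its levels in the same order were 59.7, 32.1, 21.8, 143 and 22.5 FPKM, and in the GSK805 pair 84.8 FPKM with vehicle and 12.6 with GSK805. The libraries with an antagonist were all below vehicle, and ATV alone was far above it in MDA-MB468 and close to it in HCC70. The log2 ratio at 2.5 µM XY018 was -1.46 in HCC70 (interval -1.67 to -1.26) and -1.45 in MDA-MB468 (interval -1.59 to -1.32).

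HMGCS1 had the lowest log2 ratio of the 8 enzymes in 6 of the 9 comparisons. Its HCC70 levels were 16.1 FPKM with vehicle, 5.79 and 3.88 with XY018 at 1.25 and 2.5 µM, 20.4 with ATV and 4.25 with both. In MDA-MB468 they were 57.1, 23.5, 15.6, 158 and 15.8 FPKM, and in the GSK805 pair 138 and 20.5 FPKM. Every antagonist library was thus below its vehicle by at least 2.42-fold. At 2.5 µM XY018 the log2 ratio of HMGCS1 was -2.02 in HCC70 (interval -2.28 to -1.82), where it ranked 20 from the lowest of 11721 genes, and -1.87 in MDA-MB468 (interval -1.96 to -1.79), where it ranked 121 of 11919.

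MVK, PMVK and MVD act in turn on mevalonate, and they did not move together. MVK was at 8.65 FPKM in HCC70 vehicle, 4.25 and 3.17 with XY018 at 1.25 and 2.5 µM, 12.5 with ATV and 3.53 with both. Its MDA-MB468 levels were 20.1, 13.3, 11.3, 32.3 and 7.15 FPKM, and 28.4 and 5.75 FPKM in the GSK805 pair. MVK was therefore lower with every antagonist treatment, although in MDA-MB468 at 1.25 µM it lay at the threshold itself, with a log2 ratio of -0.59 (interval -0.73 to -0.45). In the same comparison IDI1, at 1.42-fold, and FDPS, at 1.39-fold, lay just outside it.

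PMVK, the next kinase, hardly varied. It stood in HCC70 at 25.0 FPKM with vehicle, 21.0 and 25.9 with the lower and higher dose of XY018, 27.1 with ATV and 25.0 with both. MDA-MB468 gave 25.1, 24.1, 26.2, 22.5 and 21.5 FPKM, and the GSK805 pair 37.2 and 32.2 FPKM. The log2 ratios of PMVK ran from -0.25 to 0.11 over the 9 comparisons, and the counting interval left out 0 only for both compounds in MDA-MB468 (-0.42 to -0.03).

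MVD separated the lines. In HCC70 it was at 56.0 FPKM with vehicle, 18.1 and 17.3 with XY018 at 1.25 and 2.5 µM, 95.8 with ATV and 20.7 with both. In MDA-MB468 the levels were 144, 125, 123, 334 and 87.8 FPKM, so that XY018 alone left MVD close to vehicle. The log2 ratio at 2.5 µM was -1.69 in HCC70 (interval -1.89 to -1.51) and -0.23 in MDA-MB468 (interval -0.29 to -0.17), a difference of -1.46 (interval -1.66 to -1.27). At 1.25 µM that difference was -1.42 (interval -1.62 to -1.23). With GSK805, MVD was at 161 FPKM against 423 in the vehicle of that experiment.

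IDI1, FDPS and GGPS1 handle the 5-carbon units and their condensation. IDI1 in HCC70 was at 57.8 FPKM with vehicle, 21.6 and 14.3 with XY018 at 1.25 and 2.5 µM, 71.5 with ATV and 19.0 with both, and in MDA-MB468 at 37.2, 26.1, 21.7, 64.7 and 16.9 FPKM. IDI1 was lower by 4.03-fold at 2.5 µM in HCC70 and by 1.71-fold in MDA-MB468, and its log2 ratios differed by -1.24 (interval -1.44 to -1.04). FDPS in HCC70 was at 200.5 FPKM with vehicle, 124 and 112 with XY018 at the lower and higher dose, 218 with ATV and 96.2 with both. Its MDA-MB468 levels were 231, 166, 129.8, 403 and 113 FPKM.
FDPS, the most abundant, had a log2 ratio of -0.83 in each line at 2.5 µM XY018, with a difference of 0.00 between them (interval -0.11 to 0.11). For ACAT2 that difference was -0.01 (interval -0.25 to 0.24), and the HMGCS1 difference of -0.15 also had an interval that included 0 (-0.39 to 0.09). The MVK ratio was the lower in HCC70, with a difference of -0.59 (interval -0.98 to -0.21).

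GGPS1, which extends farnesyl to geranylgeranyl diphosphate, varied as little as PMVK. Its HCC70 levels were 17.8, 16.5, 15.2, 19.1 and 16.3 FPKM for vehicle, XY018 at 1.25 and 2.5 µM, ATV and both, and its MDA-MB468 levels 21.7, 20.8, 17.9, 24.3 and 20.7 FPKM. GGPS1 stayed within 1.5-fold in all 9 comparisons, with log2 ratios from -0.28 to 0.16. Small shifts left 0 outside the counting interval in 4 of the 9. GGPS1 was at -0.23 with XY018 at 2.5 µM in HCC70 (interval -0.42 to -0.04). In MDA-MB468 it was at -0.28 with the same dose (interval -0.41 to -0.15). ATV gave 0.16 there (interval 0.05 to 0.28) and GSK805 -0.15 (interval -0.28 to -0.02). With fragments lowered by a factor of 2 these became, in turn, -0.50 to 0.04, -0.46 to -0.10, 0.00 to 0.33 and -0.34 to 0.04. The FPKM ratio of FDPS to GGPS1, 11.3 in HCC70 vehicle, was 7.40 with XY018 at 2.5 µM and 5.92 with both.

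**Figure D2:**
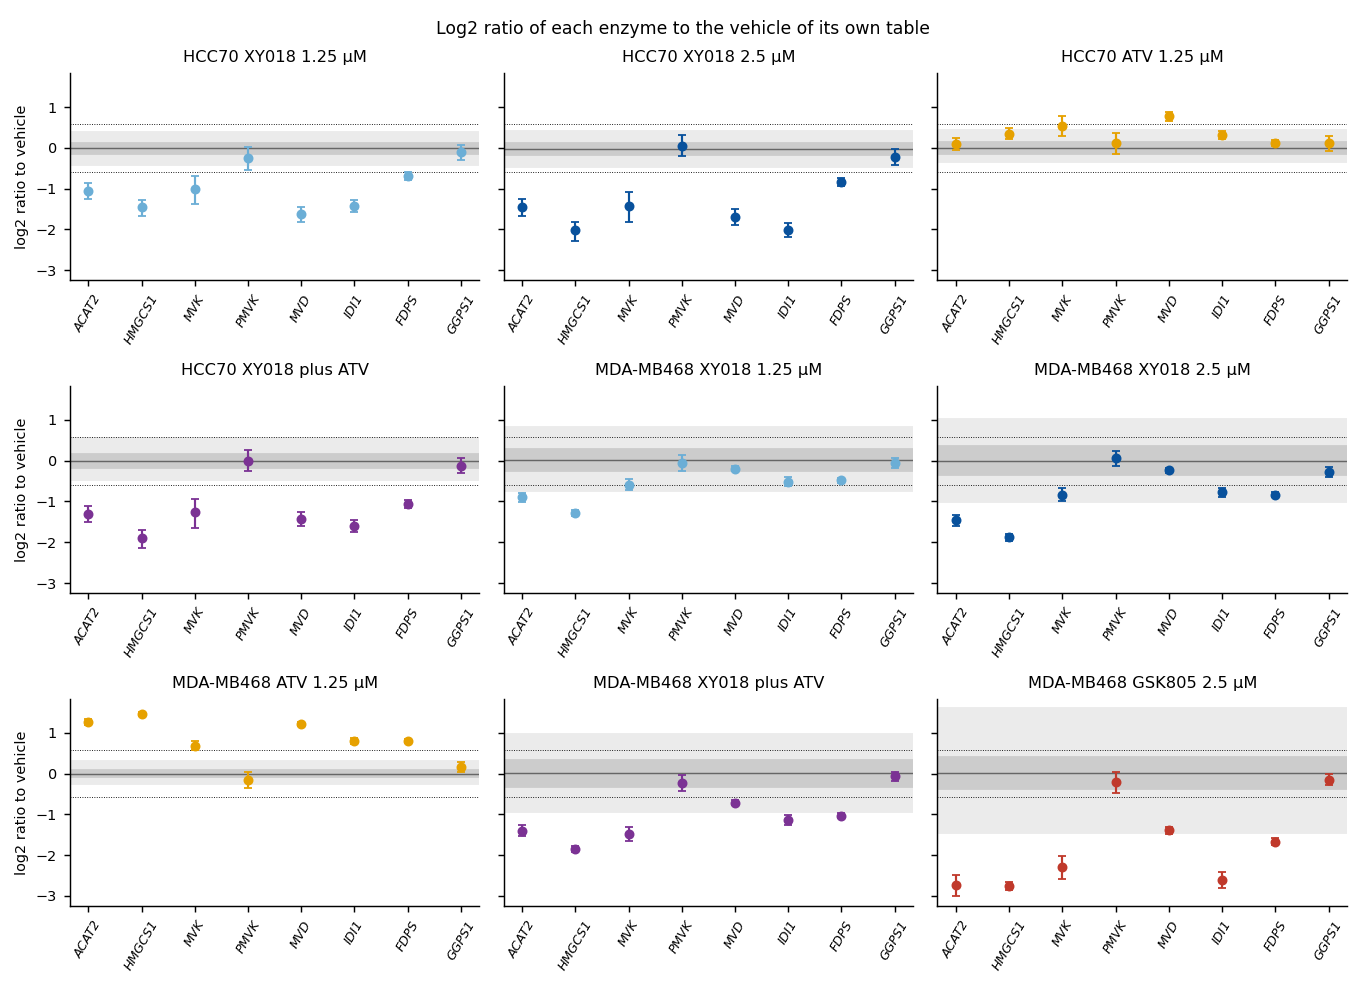
Log2 ratio of each enzyme to the vehicle of its own table, with 1 panel per comparison, points for the enzymes and bars for the 95% counting interval. The dark and light bands hold the middle 50% and 90% of all genes compared, the dotted lines mark 1.5-fold, and the points of PMVK and GGPS1 stay between the dotted lines in all 9 panels.

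A higher dose of XY018 moved most of the enzymes a little further. From 1.25 to 2.5 µM, 7 of 8 were lower in HCC70, against 52.3% of all genes below 0 at that step, and 7 of 8 in MDA-MB468, against 52.6%. The median differences were -0.27 and -0.25 on the log2 scale. PMVK was the exception in both lines, at 0.30 and 0.12. IDI1 had the largest step down in HCC70, at -0.59 (interval -0.79 to -0.40), and HMGCS1 in MDA-MB468, at -0.59 (interval -0.69 to -0.50). MVD changed little from dose to dose, with differences of -0.06 (interval -0.30 to 0.17) and -0.02 (interval -0.09 to 0.04). Doses share a vehicle in each line, but these differences compare the treated libraries directly.

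ATV alone was followed by higher levels in MDA-MB468 and by smaller changes in HCC70. MDA-MB468 had 6 of 8 enzymes higher by at least 1.5-fold, against 1.37% of all genes, and the median log2 ratio was 0.80. In HCC70 only MVD was higher by that much, 1 of 8 against 2.22% of all genes, and the median was 0.21. All 8 log2 ratios there were above 0, where the median of all genes was -0.01, and 5 of the 8 counting intervals left out 0. HMGCS1 ranked 10 and ACAT2 18 from the highest of 11710 genes in MDA-MB468, with log2 ratios of 1.47 (interval 1.42 to 1.51) and 1.26 (interval 1.18 to 1.35). In HCC70 the same enzymes were at 0.34 (interval 0.21 to 0.48) and 0.10 (interval -0.05 to 0.25). The difference between the lines was thus -1.12 for HMGCS1 (interval -1.26 to -0.98) and -1.17 for ACAT2 (interval -1.34 to -1.0), while for MVK, at -0.16, the interval included 0 (-0.42 to 0.11). FDPS differed by -0.68, IDI1 by -0.49 and MVD by -0.44, all with intervals below 0.

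With both compounds the enzymes were close to or below the levels seen with XY018 alone, and the higher levels of ATV alone were not seen. Against vehicle, 6 of 8 were lower in HCC70, against 2.93% of all genes, and the same 6 in MDA-MB468, against 12.2%, with medians of -1.28 and -1.08. Set beside ATV alone, 6 of 8 were lower by at least 1.5-fold in HCC70, against 2.54% of all genes, and in MDA-MB468, against 11.1%, with median differences of -1.60 and -1.93. HMGCS1 in MDA-MB468 went from 158 FPKM with ATV to 15.8 with both, which is 9.93-fold lower (log2 difference -3.31, interval -3.40 to -3.25), and ACAT2 from 143 to 22.5 FPKM (log2 difference -2.66, interval -2.79 to -2.55). In HCC70 the corresponding difference was -2.24 for HMGCS1 (interval -2.48 to -2.05) and -2.20 for MVD (interval -2.37 to -2.04). PMVK differed by -0.11 and -0.06, both with intervals that include 0.

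Beside XY018 at 1.25 µM alone, the addition of ATV left the HCC70 enzymes within 1.5-fold and took 2 of 8 in MDA-MB468 past it. In HCC70 0 of 8 were lower by that much, against 1.96% of all genes, with a median of -0.21. In MDA-MB468 MVK (13.3 to 7.15 FPKM, log2 difference -0.89, interval -1.08 to -0.71) and IDI1 (26.1 to 16.9 FPKM, log2 difference -0.63, interval -0.76 to -0.51) were lower, 2 of 8 against 1.76% of all genes, and the median was -0.53. MVD was 0.20 above XY018 alone in HCC70 (interval -0.03 to 0.43) and 0.51 below it in MDA-MB468 on the log2 scale (difference -0.51, interval -0.58 to -0.44).

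The levels with both compounds were lower than the sum of the single log2 ratios for the 6 responding enzymes in each line. In MDA-MB468 the single ratios of ACAT2, 1.26 for ATV and -0.89 for XY018, add to 0.37, and the measured ratio with both was -1.40. For HMGCS1 the sum was 0.19 and the measured ratio -1.85, and for MVD 1.01 and -0.71. The measured ratio less the sum had a median of -1.50 over the 8 enzymes, where the median over 11747 genes was -0.01 and 90% of genes lay between -0.46 and 0.40. In HCC70 that median was -0.49, beside 0.00 over 11618 genes with 90% between -0.40 and 0.46. The largest gaps there were those of MVK, at -0.79 (interval -1.25 to -0.33), and HMGCS1, at -0.78 (interval -1.07 to -0.50). Both the sum and the measured ratio use the same vehicle library. PMVK and GGPS1 lay near 0 in this measure, at 0.14 and -0.13 in HCC70 and -0.01 and -0.17 in MDA-MB468.

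**Figure D3:**
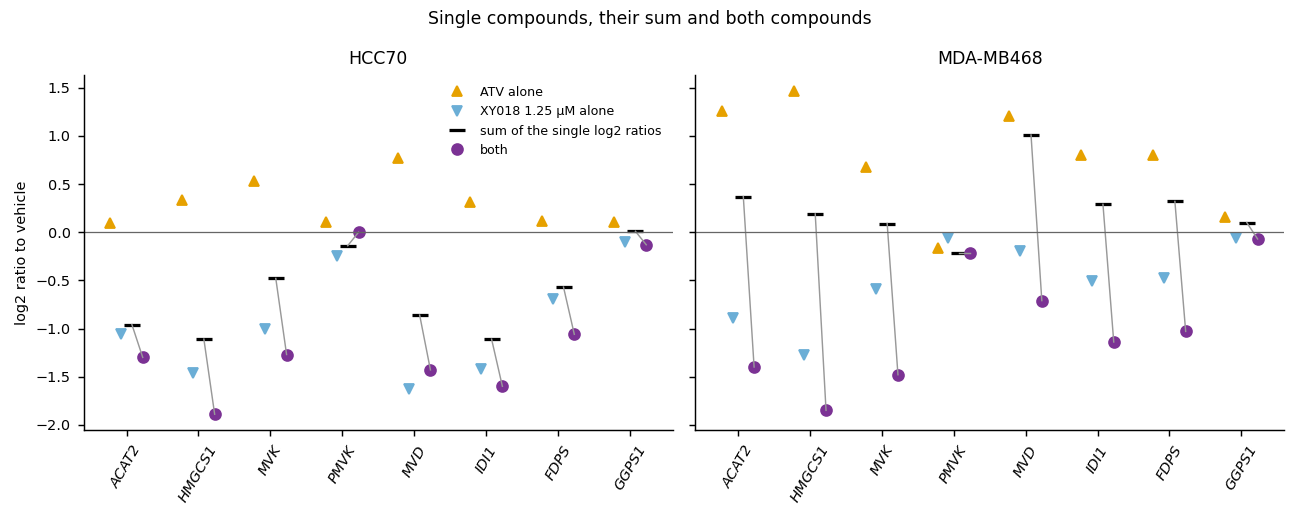
Log2 ratio to vehicle of each enzyme with ATV alone, with XY018 at 1.25 µM alone and with both, beside the sum of the single log2 ratios (black dash), for HCC70 and MDA-MB468. The gray line joins the sum to the measured value, and in MDA-MB468 it crosses 0 for every enzyme except PMVK, over a short length for GGPS1 (0.10 to -0.07) and a longer one for the other 6.

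GSK805, the other antagonist, was measured in MDA-MB468 at 2.5 µM. It gave lower levels of the same 6 enzymes, 6 of 8 against 16.6% of all 19951 genes compared and 12.5% of the 11964 found by name in all 3 tables, with a median log2 ratio of -1.98 beside 0.01 for all genes. ACAT2 (84.8 to 12.6 FPKM), HMGCS1 (138 to 20.5 FPKM) and IDI1 (73.7 to 12.1 FPKM) were lower by 6.66-fold, 6.71-fold and 6.07-fold. MVK was lower by 4.87-fold, FDPS, at 540.3 and 169.6 FPKM, by 3.18-fold, and MVD by 2.63-fold, and PMVK and GGPS1, at 43.9 and 39.5 FPKM, stayed within 1.16-fold. The FPKM ratio of FDPS to GGPS1 was 12.3 with vehicle and 4.29 with GSK805.

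XY018 and GSK805 were given to MDA-MB468 at the same dose and time, so their log2 ratios, each to its own vehicle, can be subtracted for the 8 enzymes. GSK805 less XY018 was -1.83 for IDI1 (interval -2.05 to -1.61), -1.46 for MVK (interval -1.77 to -1.15), -1.29 for ACAT2 (interval -1.58 to -1.0) and -1.17 for MVD (interval -1.26 to -1.07). HMGCS1, at -0.88 (interval -1.01 to -0.75), and FDPS, at -0.84 (interval -0.94 to -0.74), also were lower with GSK805. Intervals that included 0 were found for PMVK (-0.27, interval -0.59 to 0.05) and GGPS1 (0.13, interval -0.05 to 0.31). The compounds were tested in separate experiments with separately normalized tables, so compound and experiment cannot be told apart. The vehicle libraries of these experiments differed as well. MVD was at 144 FPKM in the one and 423 in the other, HMGCS1 at 57.1 and 138 and FDPS at 231 and 540.3, log2 ratios of 1.56, 1.27 and 1.22 where the median over 11864 shared names was 0.56. Set against the vehicle of the XY018 and ATV experiment, GSK805 would leave MVD at a log2 ratio of 0.16, FDPS at -0.45 and HMGCS1 at -1.48, and the median of the 8 enzymes at -0.96. These values carry the offset between the tables. With log2 ratios centered on the median of the shared names they were -0.41 for MVD, -1.02 for FDPS and -2.05 for HMGCS1. The median of the 8 enzymes was then -1.54. Of the 6 calls only that of MVD was lost, which left 5 of 8 enzymes lower. The share of all genes lower in that setting is not given here.

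Genes that start beside an enzyme gene on the opposite strand showed both parallel and unlike patterns. MMAB, an enzyme of vitamin B12 metabolism whose start lies 325 bases from that of MVK, had a log2 ratio of the same sign as MVK in 9 of 9 comparisons. Distances between starts are counted here from the ends of whole annotated genes, not from the main transcript's start used for the promoters. MMAB was at 5.91 FPKM in HCC70 vehicle and 2.43 with XY018 at 2.5 µM (log2 ratio -1.25 beside -1.42 for MVK), at 9.63 in MDA-MB468 vehicle and 14.7 with ATV (0.61 beside 0.68), and at 59.1 and 17.2 in the GSK805 pair (-1.77 beside -2.28). SOD2, the mitochondrial superoxide dismutase, starts 484 bases from ACAT2 and went the other way in the MDA-MB468 libraries with XY018. Its level there was 65.7 FPKM with vehicle, 174 and 213 with XY018 at 1.25 and 2.5 µM and 280.3 with both, where ACAT2 was lower. With ATV alone SOD2 was at 81.4 FPKM, a log2 ratio of 0.31 in the same direction as the 1.26 of ACAT2, and with GSK805 it was at 115 against 97.6 FPKM (0.24 beside -2.74). In HCC70 SOD2 stayed between 182 and 199.7 FPKM.
WDR37, beside IDI1, had log2 ratios between -0.40 and 0.19. ARID4B, beside GGPS1, lay between -0.13 and 0.13 except with GSK805, at 1.12. TCP1, which overlaps the end of ACAT2, lay between -0.15 and 0.19. MMAB, SOD2 and ARID4B also overlap, in the annotation, the enzyme gene that each starts beside. Which reads the authors' counting gave to overlapping genes is not stated, and the share of such reads was not tested. RUSC1-AS1, annotated on the strand opposite to FDPS and overlapping it, was at 40.5 FPKM in HCC70 vehicle and 19.7 with both, a log2 ratio of -1.04 beside -1.06 for FDPS. In MDA-MB468 the same RNA was listed at 0.09 FPKM in the vehicle of the XY018 and ATV experiment, where FDPS was at 231 FPKM. In the GSK805 pair it was at 1.76 FPKM with vehicle and 0.699 with GSK805, a log2 ratio of -1.22 beside -1.67 for FDPS.

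**Figure D4:**
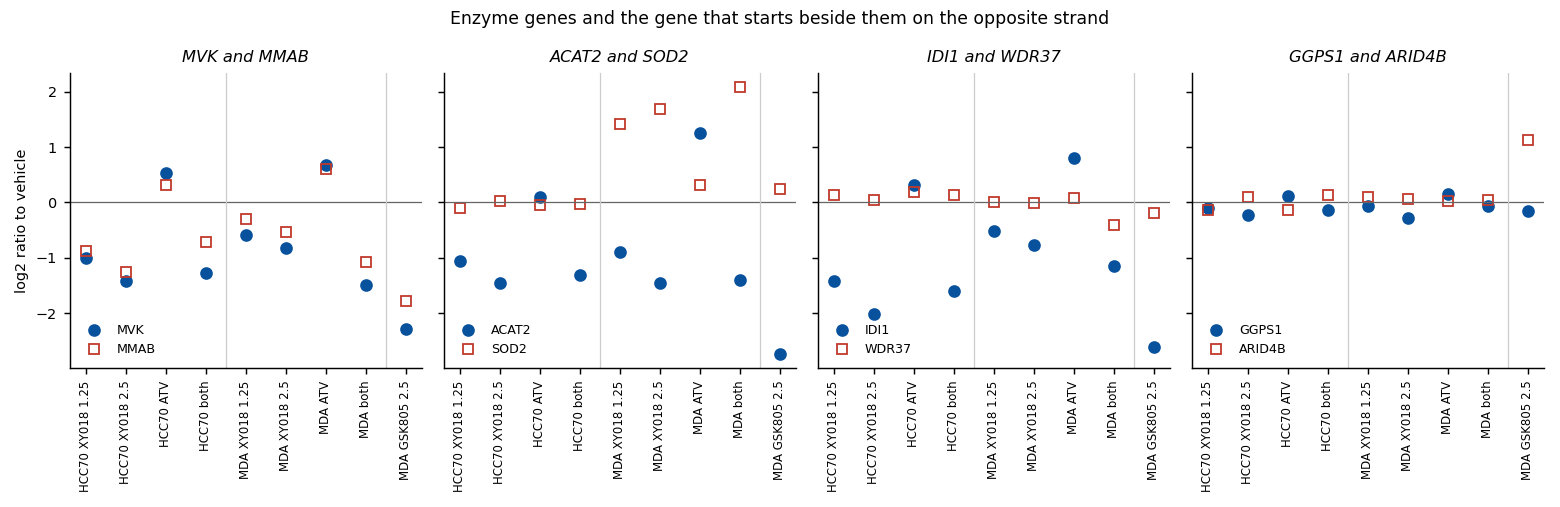
Log2 ratio to vehicle of an enzyme gene (filled circles) and of the gene that starts beside it on the opposite strand (open squares) in the 9 comparisons, with gray lines between HCC70, MDA-MB468 with XY018 and ATV, and MDA-MB468 with GSK805 (MDA stands for MDA-MB468). MMAB follows MVK in sign in all 9, SOD2 reaches 2.09 where ACAT2 is at -1.40, and WDR37 stays near 0.

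Most of the enzymes that follow FDPS toward cholesterol were lower with the antagonists as well. Of 13 sterol enzymes from squalene synthase on, 11 were lower in HCC70 with XY018 at 2.5 µM (median log2 ratio -1.32), against 3.26% of all genes, 12 in MDA-MB468 (-0.95), against 14.5%, and 12 with GSK805 (-1.49), against 16.6%. SQLE, squalene epoxidase, had the lowest ratio in HCC70, at -2.85 (80.1 to 11.0 FPKM), and LBR, which carries a sterol reductase domain, the highest, at -0.05. With ATV the higher ones numbered 10 of 13 in MDA-MB468, against 1.37% of all genes, and 2 of 13 in HCC70, against 2.22%.
The suppliers of cytosolic acetyl-CoA ACLY, ACSS2 and SLC25A1 were lower in 1 of 3 cases in HCC70 with XY018 at 2.5 µM (3.26% of all genes), in 3 of 3 with GSK805 (16.6%) and in 2 of 3 in MDA-MB468 with XY018 at 2.5 µM (14.5%), with ACLY lowest at -1.29 (97.7 to 40.0 FPKM). Of 20 users of isoprenoids, such as protein prenyltransferases and the enzymes of ubiquinone and dolichol synthesis, 0 were lower in HCC70 in the 3 comparisons with XY018, with medians between -0.05 and -0.03. Only 2.64% to 3.26% of all genes were lower there, so a count of 0 of 20 lies near that share. In MDA-MB468 6 of these 20 were lower and 3 higher with XY018 at 2.5 µM, where 14.5% and 14.1% of all genes were, and 8 were lower and 3 higher with both compounds, where 12.2% and 13.1% of all genes were. With GSK805 5 were lower, where 16.6% of all genes were. In the XY018 and ATV experiment with MDA-MB468, PDSS1, which makes the ubiquinone side chain, was at 2.32 FPKM in vehicle. It was at 0.99 FPKM with XY018 at 2.5 µM and 0.71 with both, while DHDDS, which makes the dolichol chain, was at 22.1, 62.3 and 45.3 FPKM. With GSK805 the log2 ratios of PDSS1 and DHDDS were -1.09 and -0.45, and in HCC70 with XY018 at 2.5 µM they were -0.21 and 0.11.
IDI2, a relative of IDI1, was close to the 1 FPKM filter. In HCC70 its log2 ratio was -0.64 with XY018 at 1.25 µM (1.88 to 1.17 FPKM) and -0.75 with both (1.88 to 1.08 FPKM). With XY018 at 2.5 µM it was -0.42 in HCC70, within 1.5-fold, and 0.42 in MDA-MB468. BDH1, a ketone body dehydrogenase, was higher with GSK805 (14.9 to 29.0 FPKM, log2 ratio 0.96).

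The median log2 ratios of the 8 enzymes over the 9 comparisons were set against those of 7127 genes at 5 FPKM or more in all 3 vehicle libraries. The highest Pearson correlations were those of INSIG1, a sterol-regulated membrane protein of the endoplasmic reticulum, at 0.99, then C14orf1, also known as ERG28 and a tether of sterol enzymes, ELOVL5 and MMAB, at 0.98 each, and the sterol reductase TM7SF2, at 0.97. By Euclidean distance the nearest were FDFT1, squalene synthase, at 0.641, C14orf1 at 0.717, MMAB at 0.767 and NSDHL, a sterol dehydrogenase, at 0.847. ELOVL5, a fatty acid elongase, matched the shape but not the size, with log2 ratios from -0.60 to 0.24 and a distance of 2.49. Of the enzymes themselves, PMVK had a correlation of 0.20 with the median profile and GGPS1 of 0.81, while the other 6 were at 0.92 or above. The 8 enzymes themselves make up that median, so high correlations of most of them with it are in part built in. The points share vehicle libraries within a table, so these values only describe the 9 comparisons.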

How the data were processed

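Data were 12 RNA-seq libraries of 2 cell lines, 1 for each condition. Reads had been aligned by the authors to GRCh37/hg19 (BWA, Bowtie) and summarized per gene (Cufflinks), and they deposited FPKM values in 3 tables. The headers name no unit, and FPKM follows from the methods and the size of the values. Where a name was repeated (2, 2 and 2165 rows in the HCC70, XY018 and ATV, and GSK805 tables), the row with the highest mean was kept. Log2 ratios were computed with a pseudocount of 0.1 for genes with at least 1 FPKM in either library of a pair, and no test was run. Depth was found as the number of fragments that makes low FPKM values of genes with a single GENCODE transcript whole fragments, with 1 length offset per table out of 13 from 0 to 240 nt (20 for HCC70, 0 and 200 for the others). Fragments of an enzyme follow from FPKM, main transcript length and depth. Intervals are Clopper-Pearson at the 95% level for ratios, and 1.96 standard errors from fragment counts for differences of log2 ratios. Calculations were tested on simulated data.

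Every enzyme is named. Lists are given by counts with their extreme members, neighbors by a start within 1 kb on the opposite strand or an overlap, and likeness by the 5 closest genes. Some genes of these lists are not reported here. The enzymes and lists were chosen with earlier results of these data known. Neighbors came from GENCODE, not from RefSeq as planned, because strand was needed. Alternatives were a 2-fold call, pseudocounts of 1 and 0.01, no filter or 5 FPKM, centering on the median, the other MDA-MB468 vehicle for GSK805 as deposited and centered, and fragments lowered by a factor of 2. Software was scipy 1.17.1, matplotlib 3.10.9, pandas 2.3.3 and numpy 2.4.6 under Python 3.11.15.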

Additional observations from a re-analysis of the deposited data

Results flagged for a closer look

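PMVK was the only enzyme whose log2 ratio pointed in opposite directions in the lines under the same treatment. With ATV it was 0.11 in HCC70 and -0.16 in MDA-MB468, a difference of 0.27 with a counting interval of -0.05 to 0.59. Each line has 1 library with ATV and 1 with vehicle, the interval includes 0, and the difference was not tested.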

How the results depend on the processing

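Pseudocounts of 1 and 0.01, filters of 5 FPKM and none, and centering on the median of all genes left counts of called enzymes within 1.5 times and medians within the mean half-width of the enzymes' counting intervals. Of 360 single log2 ratios under these settings, 2 left their counting interval, those of HMGCS1 in HCC70 with a pseudocount of 1, at -1.80 with XY018 at 2.5 µM and -1.70 with both. The median step between XY018 doses in HCC70 went from -0.27 to -0.15 with the 5 FPKM filter, which leaves out MVK. At a 2-fold call the enzymes lower in MDA-MB468 with XY018 numbered 1 at 1.25 µM and 2 at 2.5 µM, and those higher with ATV 0 in HCC70 and 3 in MDA-MB468. The threshold itself, moved up, is what changed these counts. Shares of all genes at 2-fold are not given here, so the counts show only that dependence. With the vehicle of the XY018 and ATV experiment in place of its own, GSK805 gave a median of -0.96, MVD reversed to 0.16, and 1 enzyme, GGPS1, was higher, at 0.86. Centered on the median of the shared names, a setting chosen after seeing the data, the median was -1.54, MVD -0.41 and GGPS1 0.28, with 5 enzymes lower and 0 higher, so the reversal and the higher call are not seen once the offset between the tables is removed. Shares of all genes called against that other vehicle are not given here. The cause of the difference between these vehicles was not tested. With fragments lowered by a factor of 2, the number of intervals that leave out 0 stayed within 1.5 times in all 9 comparisons. No paired analysis was possible because each condition has 1 library, and leaving out a library leaves no value. Depth is an estimate, and lower-expressed MVK in HCC70 (87.6 to 345 fragments) has the widest intervals.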
